A study of Mus musculus with 6 samples.

Results

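The peroxiredoxins and the thioredoxin system were represented by 10 genes chosen by name: Prdx1 to Prdx6, the thioredoxins Txn1 and Txn2, and the thioredoxin reductases Txnrd1 and Txnrd2. All 10 were found among the 27179 genes of the deposited table. The RNA came from lenses of newborn mice (postnatal day 1) of the mixed strain B6/FVB, in 3 libraries of genotype Gclc KO and 3 of genotype Gclc CON. The labels leave out how the gene was deleted (any Cre driver, the exons removed) and which alleles the controls carry, as well as sex, litter and the number of animals pooled. Nothing states that each library is a separate animal, and p-values here describe the spread among these 6 libraries alone. The comparison asks how the thiol defences that work beside glutathione stood in a lens whose glutathione synthesis gene was targeted.

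Peroxiredoxins are abundant thiol peroxidases that reduce hydrogen peroxide and organic hydroperoxides with a reactive cysteine. Most of them are reduced again by thioredoxin, which in turn is reduced by thioredoxin reductase, a selenoenzyme that draws on NADPH. Prdx6 is the exception, since it lacks the resolving cysteine and is reduced with glutathione, and the lens depends on both thiol systems to keep its crystallins in a reduced, soluble state.

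Of the 10 genes, Prdx6 was the one that passed the test, with 1.75-fold more normalised reads in KO than in CON. Normalised reads are reads recovered from the deposited values and divided by the size factor of the library. The other 9 did not pass at an adjusted p under 0.05, and their log2 differences ran from -0.36 (Txn2) to 0.35 (Txnrd1). The count of 1 higher and 0 lower members stands beside 6.91% higher and 4.39% lower among all 11468 genes tested, 11.3% in either direction. The median log2 difference over the 10 members was -0.06, with 4 of them positive, against 0.03 over all tested genes, of which 6019 were positive. KO and CON libraries did not overlap for Prdx6 (KO higher) and Txn2 (KO lower), where 16.9% of tested genes lay wholly higher and 14.1% wholly lower.

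Libraries held between 20361430 (CON 2) and 61219009 (KO 3) reads in genes, and CON 2 is also the only one whose name ends in a different lane suffix. Crystallins, taken as 16 genes, held 59.51% to 68.37% of the reads in CON and 40.52% to 47.53% in KO, and this sets how the scale of the comparison is read below. Gclc, the targeted gene and the catalytic subunit of glutamate-cysteine ligase, stood at 178, 283 and 173 normalised reads in the CON libraries and at 17.9, 72.1 and 58.1 in the KO libraries. Every KO library was below every CON library, and the CON mean was 4.28-fold the KO mean. On the deposited scale, which compresses differences of genes with few reads, its log2 difference was -1.01 (SE 0.28, adjusted p = 0.0387, limma), against -2.25 on log2 of normalised reads plus 1. The call is fragile. It held in 3 alternatives and was lost in others (adjusted p from 0.0609 to 0.124, limma with or without voom). Removing any 1 of CON 2, KO 1, KO 2 and KO 3 also ended it (at most 0.13). Lens fibre markers, led by Cryba1, Cryaa and Crybb1, were present in every library, and 13 of 14 fell, with a summed level of 18861899 to 26297452 normalised reads in CON and 6928668 to 10273809 in KO. Of 16 tested macrophage markers, led by Fcgr3, C1qa and C1qb, 11 rose, with a sum of 2269 to 4267 in CON and 8216 to 26740.1 in KO; Adgre1, Ptprc, Fcgr1 and Mertk were at 0 in CON 2, and Itgam and Mertk in CON 3. The share of each member's reads that comes from cells other than lens was not tested, and in bulk lens RNA a change in the number of cells of a type and a change in RNA per cell cannot be told apart.

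**Figure D1:**
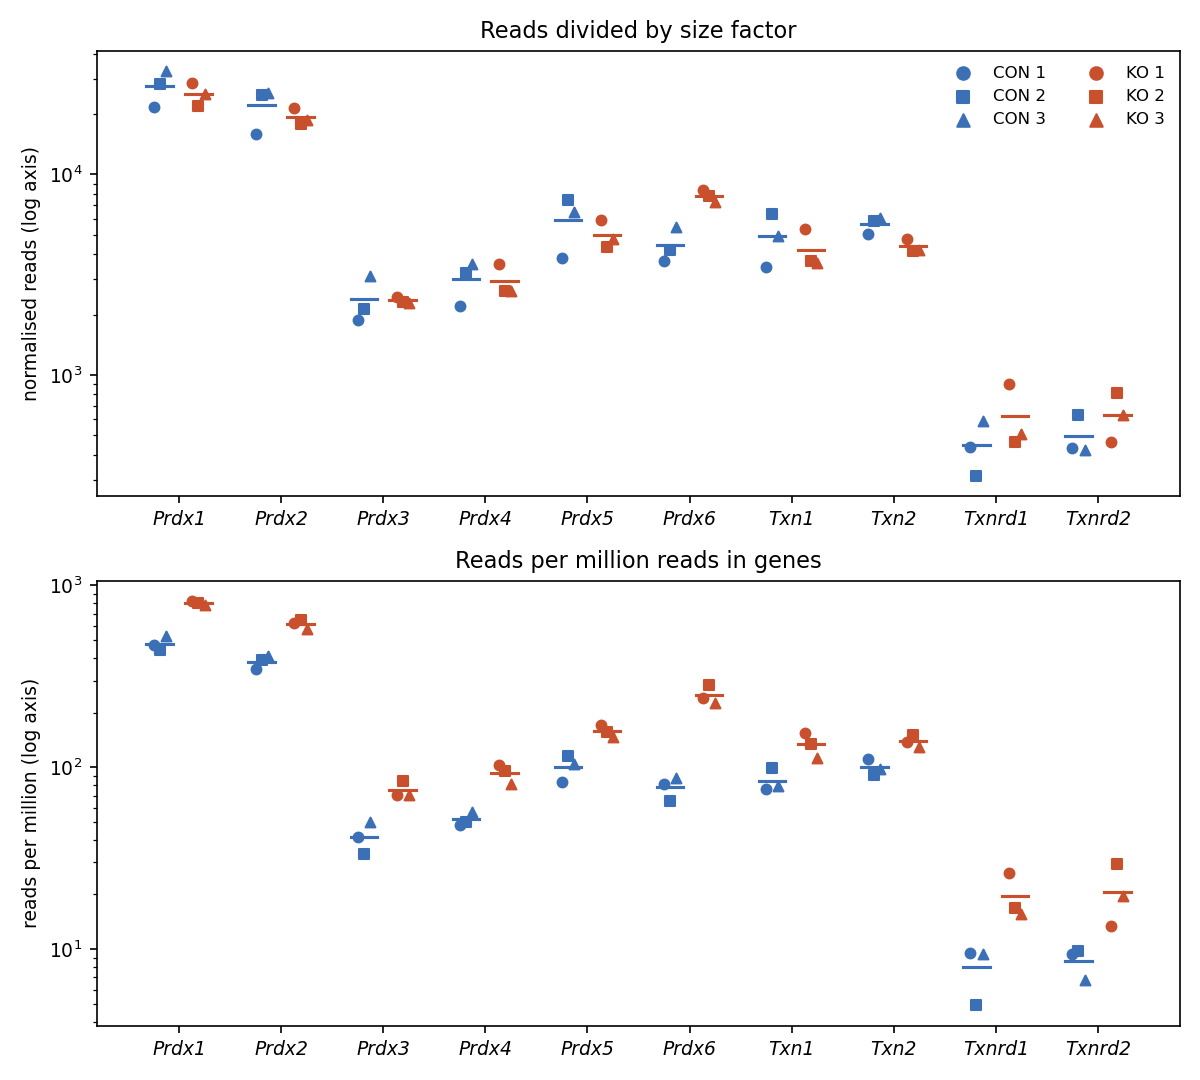
Level of each of the 10 genes in each library, as normalised reads (upper panel) and as RPM, reads scaled to a common total of reads in genes (lower panel), both on log axes; each point is 1 library and each line the mean of 3. In the upper panel the KO points of Prdx6 lie above all CON points and those of Txn2 below, while in the lower panel the KO points lie above the CON points for all 10 genes.

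Prdx1, the cytosolic peroxiredoxin also known for its chaperone activity, was the most abundant member by reads. Normalised reads for CON 1, CON 2 and CON 3 were 21587, 28129 and 32768, and those for KO 1, KO 2 and KO 3, in the order kept below, were 28434, 21953 and 25142. The groups overlapped, with the lowest value in CON 1 and the highest in CON 3. The means were 27495 ± 5617 in CON and 25176 ± 3241 in KO (SD, n = 3 each). The log2 difference KO minus CON was -0.11 (SE 0.22, 95% interval -0.59 to 0.36, adjusted p = 0.79, limma).

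Prdx2, its close cytosolic relative and a major protein of red cells, followed the same order across libraries at the extremes. Its normalised reads were 15882, 24809 and 25483 for CON and 21385, 17774 and 18749 for KO. CON 1 was again the lowest of all 6 libraries, and the groups overlapped (22058 ± 5359 against 19303 ± 1868). The log2 difference was -0.16 (SE 0.23, 95% interval -0.66 to 0.33, adjusted p = 0.7, limma). Of 5 tested red-cell markers, 1 was called lower (Hba-a2) and 4 were not called. The listed red-cell markers summed to 4478 to 6927 normalised reads in CON and 2373 to 3643 in KO, with Hbb-y at 0 in every library. On RPM, the groups overlapped for each of the 5 tested markers. Their part in the Prdx2 values was not tested.

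Prdx3, which removes peroxide in the mitochondrial matrix, had 1887, 2137 and 3119.6 normalised reads in CON and 2450.0, 2312 and 2294 in KO. The KO libraries lay within a narrow band (SD 85.2) inside the range of CON (SD 651). The log2 difference of 0.01 had a 95% interval of -0.48 to 0.50 (adjusted p = 0.979, limma).

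Prdx4, the peroxiredoxin of the endoplasmic reticulum, had 2209, 3210.0 and 3561 normalised reads in CON and 3566, 2620.5 and 2618 in KO. CON 3 and KO 1 were nearly level at the top, and CON 1 was the lowest. Its log2 difference was -0.02 (95% interval -0.53 to 0.49, adjusted p = 0.976, limma).

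Prdx5, found in mitochondria, peroxisomes and cytosol, had 3809.7, 7421 and 6481 normalised reads in CON and 5906, 4338 and 4768 in KO. All 3 KO libraries lay between CON 1 and CON 3. The log2 difference was -0.19 (95% interval -0.75 to 0.37, adjusted p = 0.693, limma).

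Prdx6 was the member that passed the test. This bifunctional enzyme, which also carries a phospholipase A2 activity, reached 3709, 4192 and 5444 normalised reads in CON and 8329, 7799 and 7290.2 in KO. Every KO library was above every CON library, and the lowest KO value exceeded the highest CON value. The means were 4449 ± 895 in CON and 7806 ± 519 in KO (SD, n = 3 each). The log2 difference was 0.80 (SE 0.20, 95% interval 0.36 to 1.25, adjusted p = 0.0273, limma). The direction held in each of the 6 fits that left out 1 library, with differences of 0.69 to 0.95. The call did not: leaving out CON 2 gave an adjusted p of 0.0796 (limma), KO 1 gave 0.09, KO 2 gave 0.124 and KO 3 gave 0.0895. Prdx6b, a close copy that could share reads with it, had at most 2.95 normalised reads in any library. Macrophage markers rose and lens fibre markers fell in the same libraries, as given above, and their part in the Prdx6 difference was not tested.

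Txn1, the cytosolic and nuclear thioredoxin, had 3461, 6335 and 4931 normalised reads in CON and 5345, 3703 and 3612 in KO. The highest value was in CON 2 and the lowest in CON 1, so the CON libraries spanned all of KO. The log2 difference was -0.19 (95% interval -0.74 to 0.36, adjusted p = 0.683, limma).

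Txn2, the mitochondrial thioredoxin that serves Prdx3, had 5071, 5850.5 and 6079.8 normalised reads in CON and 4747, 4159 and 4208 in KO. Each KO library was below each CON library, by a small margin between KO 1 and CON 1. The means were 5667 ± 529 in CON and 4371 ± 326 in KO, a CON to KO ratio of 1.30. The log2 difference of -0.36 (SE 0.19, 95% interval -0.77 to 0.05) did not pass the test (adjusted p = 0.257, limma).

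Txnrd1, the cytosolic reductase and a selenoprotein, had 436, 315 and 590.0 normalised reads in CON and 902, 464 and 505 in KO. KO 1 stood far above the other KO libraries, which lay inside the range of CON. With 100 reads in CON 2, this was the smallest read count of any member. The log2 difference was 0.35 (SE 0.29, 95% interval -0.27 to 0.98, adjusted p = 0.475, limma).

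Txnrd2, its mitochondrial counterpart, had 431, 629 and 420.4 normalised reads in CON and 465, 809 and 629 in KO. CON 2 and KO 2 were the highest libraries of their groups, whereas in Txnrd1 they were the lowest. The log2 difference was 0.27 (95% interval -0.29 to 0.84, adjusted p = 0.552, limma). Txnrd3, a related reductase whose reads could be confused with these, had 126 to 443 normalised reads across the libraries, with overlapping groups.

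**Figure D2:**
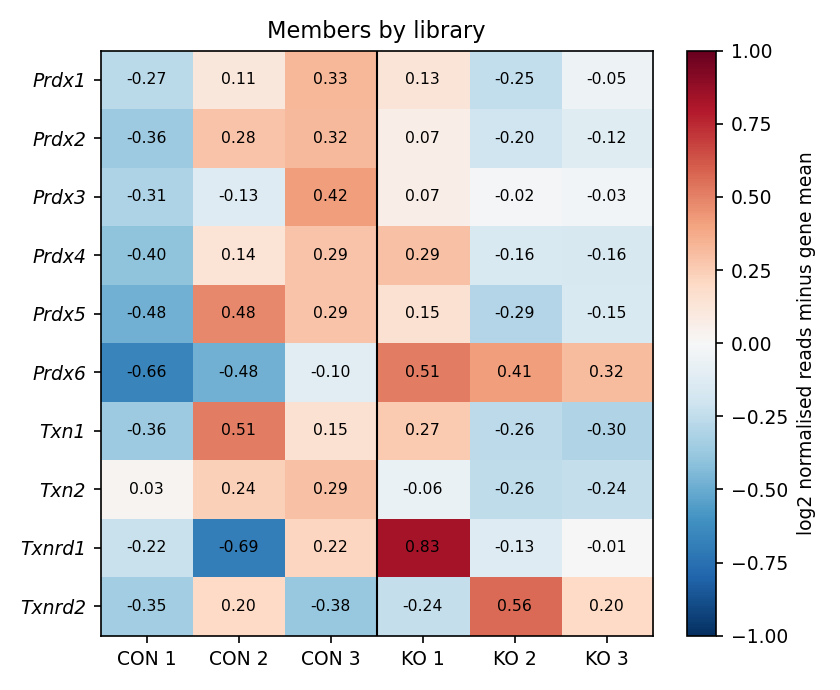
Log2 normalised reads of each gene (rows) in each library (columns) minus the mean of that gene over the 6 libraries, with CON left and KO right of the black line. CON 1 is the lowest CON library in 8 of 10 rows and KO 1 the highest KO library in 9 of 10, and Prdx6 is the row in which all KO cells are positive and all CON cells negative.

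On normalised reads, most members shared the lowest CON library and the highest KO library. CON 1 was the lowest CON library for 8 of the 10 genes, against 35.3% of all tested genes. KO 1 was the highest KO library for 9 of 10, the exception being Txnrd2, against 41.7% of tested genes. On RPM, where each library is scaled to the same total of reads in genes, these counts were 4 and 5 of 10. The shares of all tested genes were not computed on RPM.

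The scale on which libraries are compared set the direction of most of these differences. On RPM, all 10 members were higher in every KO library than in any CON library and none was lower, as were 52.1% (higher) and 1.90% (lower) of all tested genes. Prdx1 had an RPM of 471, 439 and 525 in CON and of 823, 797 and 777 in KO. Prdx6 had 81.0, 65.4 and 87.2 in CON and 241, 283 and 225 in KO. The members together took 0.128%, 0.13% and 0.142% of the reads in CON and 0.236%, 0.239% and 0.216% in KO, beside the lower crystallin share in KO.

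With library totals as the scale, limma with voom called 9 of the 10 members higher, all but Txnrd2 (adjusted p = 0.051), where 28.9% of tested genes were called higher and 0.741% lower (29.6% in either direction). That scale moved the median log2 difference of all genes to 0.86. Relative to this median, 7 members lay below 0, from -0.40 for Txn2 to -0.03 for Prdx4. Txnrd1 lay at 0.37, Txnrd2 at 0.34 and Prdx6 at 0.79. Leaving crystallins out of the totals placed the median of all genes at 0.23, and then Prdx6 and Txnrd1 were wholly higher and Txn2 wholly lower in KO (23.3% and 9.59% of tested genes). Prdx6 exceeded the median of all genes by 0.77 to 0.80 on the deposited scale, with equal library medians, with library totals and with totals without crystallins. Txn2 lay at -0.40 to -0.39 relative to it on the same scales, although its own difference on library totals was positive, at 0.46. These scales mainly shift all genes of a library together, and subtracting the median removes that shift. The near-equal values were therefore fixed in advance and do not test whether the differences hold across scales.

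**Figure D3:**
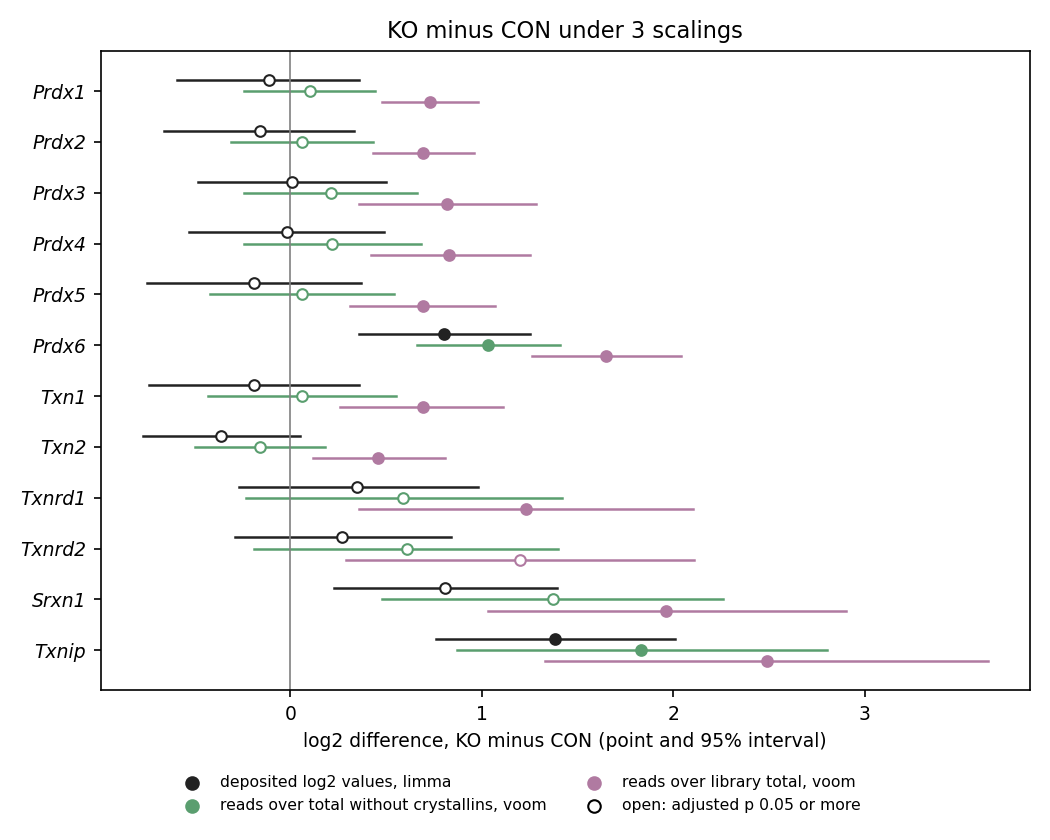
Log2 difference KO minus CON with its 95% interval for the 10 genes, Srxn1 and Txnip on 3 scales: the deposited values, reads over the total without crystallins, and reads over the library total; filled points have an adjusted p under 0.05. Prdx6 and Txnip are filled on all 3 scales, while the other members apart from Txnrd2 are filled on library totals alone.

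Ratios of genes within a library do not depend on its scale. The log2 ratio of Prdx6 to Prdx1 was -2.54, -2.75 and -2.59 in CON and -1.77, -1.49 and -1.79 in KO. The groups did not overlap, and the difference in means was 0.94 (exact two-sided permutation p = 0.10, the smallest that 3 against 3 allows; 0.30 after adjustment over 6 ratios). Prdx3 to Prdx1, a matrix against a cytosolic peroxiredoxin, was -3.52, -3.72 and -3.39 in CON and -3.54, -3.25 and -3.45 in KO. The difference was 0.13 with overlapping groups (exact permutation p = 0.50). Prdx1 to Prdx2 kept between 0.18 and 0.44 in all 6 libraries, a difference of 0.05 (exact permutation p = 0.70). Txn1 to Txn2 differed by 0.17 (exact permutation p = 0.40). Txnrd1 to Txnrd2 varied widely within both groups, lowest in CON 2 and highest in KO 1 (0.96), with KO 2 at -0.80, and its difference of 0.11 (exact permutation p = 0.90) changed sign to -0.31 without CON 2 and to -0.40 without KO 1.

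**Figure D4:**
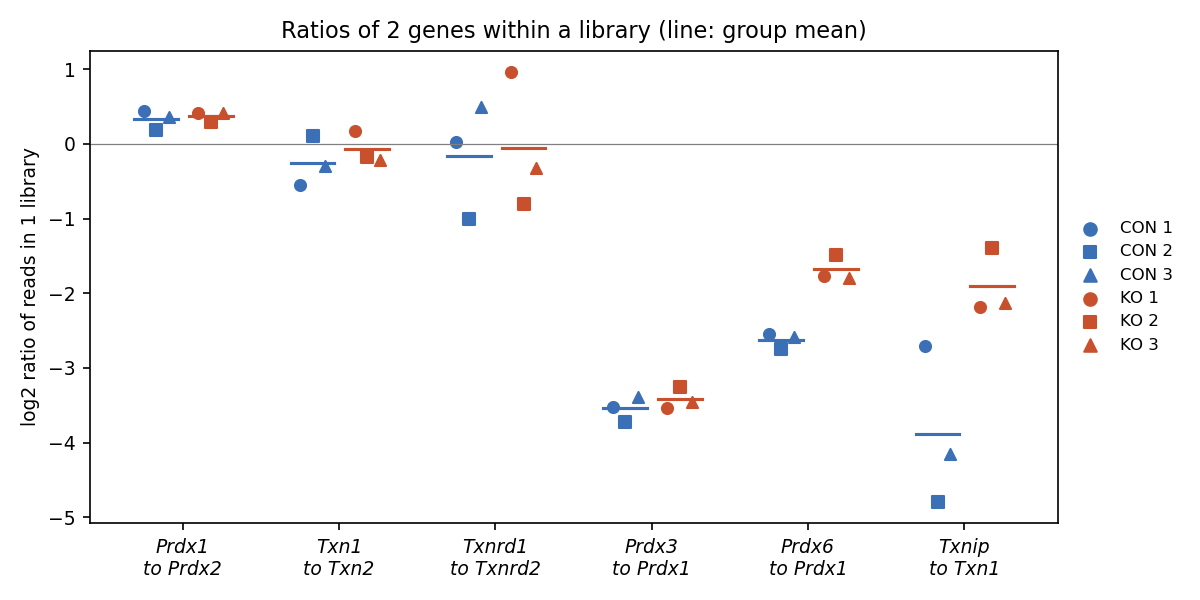
Log2 ratio of reads of 2 genes within each library for 6 ratios; points are libraries and lines are group means of 3. The KO points lie above all CON points for Prdx6 to Prdx1 and Txnip to Txn1, and overlap with CON for the other 4 ratios.

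Levels can be set against each other between genes only per length, here as normalised reads per kilobase of the median coding transcript. In CON the order was Prdx1 (41596 ± 8498), Prdx2 (14705 ± 3573), Prdx5 (8234 ± 2613), Txn2 (5742 ± 536), Txn1 (4671 ± 1367), Prdx4 (3110.0 ± 728), Prdx6 (2659 ± 535), Prdx3 (1611 ± 441), Txnrd2 (276 ± 66.0) and Txnrd1 (134 ± 41.5). From Prdx5 down to Prdx6, the CON ranges of each pair of neighbours overlapped. Prdx1, Prdx2, Prdx3, Txnrd2 and Txnrd1 lay apart from their neighbours. In KO, Prdx6 stood at 4666 ± 310.5 and moved from rank 7 to rank 4. The order depends on the transcript model. With the longest transcript of each gene, Prdx2 (13684) came above Prdx1 (11986) in CON, since the median Prdx1 transcript has 661 bases and the longest 2294. On that model Txn2 moved from rank 4 to rank 6 in CON, and Prdx6 held rank 7 in CON and rank 5 in KO (3270.2), below Txn1 (4015) and Prdx5 (3965).

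Reads on Prdx1 and Prdx2 together made up 63.8% to 65.5% of all member reads in CON and 60.3% to 62.9% in KO.

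Calls in this list and those that follow stand beside 6.91% higher and 4.39% lower among all 11468 tested genes. No list was tested as a set. Sulfiredoxin and the sestrins gave 1 lower call among 4 (median log2 difference -0.24). Sesn1, a stress-response gene that p53 induces, stood at 3756, 2694 and 3378 normalised reads in CON against 1397, 926 and 1207 in KO. All KO libraries were below CON, a 2.78-fold lower mean (log2 difference -1.36, SE 0.22, adjusted p = 0.00347, limma), and the call held in all 6 fits that left out 1 library. With library totals the difference was -0.68 and the call was lost (adjusted p = 0.0709, limma with voom). Srxn1, the sulfiredoxin that restores overoxidised peroxiredoxins, had 147, 135 and 295 in CON and 422, 426 and 441 in KO. Its groups did not overlap (2.23-fold), but the log2 difference of 0.81 (95% interval 0.23 to 1.39) missed the threshold (adjusted p = 0.074, limma). It passed without CON 3 (0.0317, limma), but not in the other fits without 1 library (up to 0.235). Srxn1 also passed with library weights (adjusted p = 0.0454, limma). With library totals it was at 1.96 (adjusted p = 0.0119, limma with voom), where 28.9% of tested genes were called higher. Srxn1 is named for its role, after its values were seen.

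Proteins that bind or resemble thioredoxin gave 1 higher and 2 lower calls among 9 (median -0.31). Txnip, the arrestin-like protein that binds and inhibits thioredoxin, had 529.9, 229.7 and 277 normalised reads in CON and 1178, 1405 and 825 in KO. Every KO library was above every CON library, with a 3.29-fold higher mean (log2 difference 1.38, SE 0.29, adjusted p = 0.0104, limma). Within libraries, the log2 ratio of Txnip to Txn1 was -2.71, -4.79 and -4.15 in CON and -2.18, -1.40 and -2.13 in KO, a difference of 1.98 (exact permutation p = 0.10; 0.30 adjusted). Arrdc4, a related arrestin-domain gene, went the other way, at 1287, 535 and 519 normalised reads for CON against 213, 88.4 and 158 for KO (a log2 difference of -1.57, adjusted p = 0.0114, limma). Arrdc3, another related gene, had 938, 928 and 1128 in CON and 1644, 2500.2 and 1159 in KO. Its groups did not overlap, in the direction of Txnip, but its log2 difference of 0.68 did not pass (adjusted p = 0.129, limma). Map3k5, the ASK1 kinase that thioredoxin holds inactive, fell from 811 ± 211 to 371 ± 59.1 (a log2 difference of -0.86, adjusted p = 0.0464, limma). Without KO 2 the calls of Txnip (0.0626) and Arrdc4 (0.056) were lost, and removing any 1 of CON 2, KO 1, KO 2 and KO 3 ended that of Map3k5 (up to 0.219). With library totals (limma with voom), Txnip stayed called at 2.49 (adjusted p = 0.0112). Arrdc4 was at -1.50 (adjusted p = 0.0724) and Map3k5 at -0.22 (adjusted p = 0.559), neither called.

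None of the 7 thioredoxin-dependent reductases (methionine sulfoxide and ribonucleotide reductases) passed the test in either direction, with a median log2 difference of 0.14. None of 8 genes for selenocysteine synthesis and insertion, on which both thioredoxin reductases depend, passed it (median -0.13). Of 10 tested selenoproteins other than these enzymes, Selenop alone rose (median 0.00). This plasma selenium carrier had 1149.6, 985 and 2384 normalised reads in CON and 5126, 4114 and 3831 in KO, a 2.89-fold higher mean without overlap (adjusted p = 0.00692, limma). Among 13 tested genes of NADPH supply, Tkt of the pentose phosphate pathway fell from 10738 ± 1076 to 6697 ± 791 (log2 difference -0.67, adjusted p = 0.0461, limma; lost in each fit without 1 library except the one without CON 1, up to 0.172). None of 12 mitochondrial matrix genes passed, with a median of -0.13 beside the -0.36 of Txn2 and the 0.01 of Prdx3.

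Superoxide dismutases and catalase gave no call among 4 (median -0.21). The glutathione-dependent counterparts gave 2 higher and 1 lower call among 7 tested (median -0.06). Gpx1, the main cytosolic glutathione peroxidase, had 34215, 51455 and 48416 normalised reads in CON and 23088, 18216 and 24054 in KO. It fell below CON in every KO library (log2 difference -1.02, SE 0.23, adjusted p = 0.0138, limma). The size of the fall depended on the scale. On RPM, Gpx1 had 747, 803 and 776 in CON and 669, 661 and 743 in KO, and its log2 difference ran from -1.14 to -0.16 over the alternatives. Gpx3, the secreted form, rose from 945 ± 476 to 2537 ± 191 (adjusted p = 0.01, limma), and Glrx, the cytosolic glutaredoxin, from 287 ± 102 to 919 ± 167 (adjusted p = 0.00906, limma). The Gpx1 call was lost without CON 2 or KO 2 (up to 0.085), and those of Gpx3 and Glrx held in all 6 such fits. The glutathione peroxidases, which share peroxide as substrate with the peroxiredoxins, thus held called genes in both directions.

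Thiol oxidation in the endoplasmic reticulum, where Prdx4 works, gave 3 higher and 0 lower calls among 21 (median 0.32). P4hb, a protein disulfide isomerase, rose from 3382 ± 751 to 6183 ± 667 normalised reads (adjusted p = 0.0259, limma). Erp44, which retains Prdx4 and the oxidase Ero1a in the secretory pathway, rose from 1366 ± 233 to 2796 ± 134 (adjusted p = 0.0119, limma). Gpx7, a peroxidase of the same compartment, rose from 314 ± 109 to 682 ± 18.2 (adjusted p = 0.0465, limma). Calls were lost without CON 2, CON 3, KO 2 or KO 3 for P4hb (up to 0.129), without KO 2 or KO 3 for Erp44 (up to 0.062), and without any 1 library other than CON 2 for Gpx7 (up to 0.167).

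NRF2 is the transcription factor known to drive Prdx1, Txn1, Txnrd1 and Srxn1. Of 10 tested genes of its control and common targets, 2 rose and 1 fell (median 0.31). Nqo1, the quinone reductase, rose from 206 ± 41.4 to 622 ± 148 normalised reads (adjusted p = 0.0159, limma). Maff, a small partner of NRF2, rose from 36.2 ± 29.7 to 252 ± 83.2 (adjusted p = 0.0158, limma). Hmox1, the haem-degrading oxygenase, fell from 20303 ± 11703 to 7318 ± 2238 with groups that overlapped (adjusted p = 0.0452, limma). These calls were lost without CON 2, KO 2 or KO 3 for Nqo1 (up to 0.103), without KO 2 or KO 3 for Maff (up to 0.0801), and without any 1 library other than CON 2 for Hmox1 (up to 0.147). Over all 113 genes listed beyond the members, 105 were tested, and 9 rose, 6 fell and 90 did not pass (median -0.05). Among all 11468 tested genes, 6.91% were higher and 4.39% lower, so these counts are not read as a result about the lists.

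**Figure D5:**
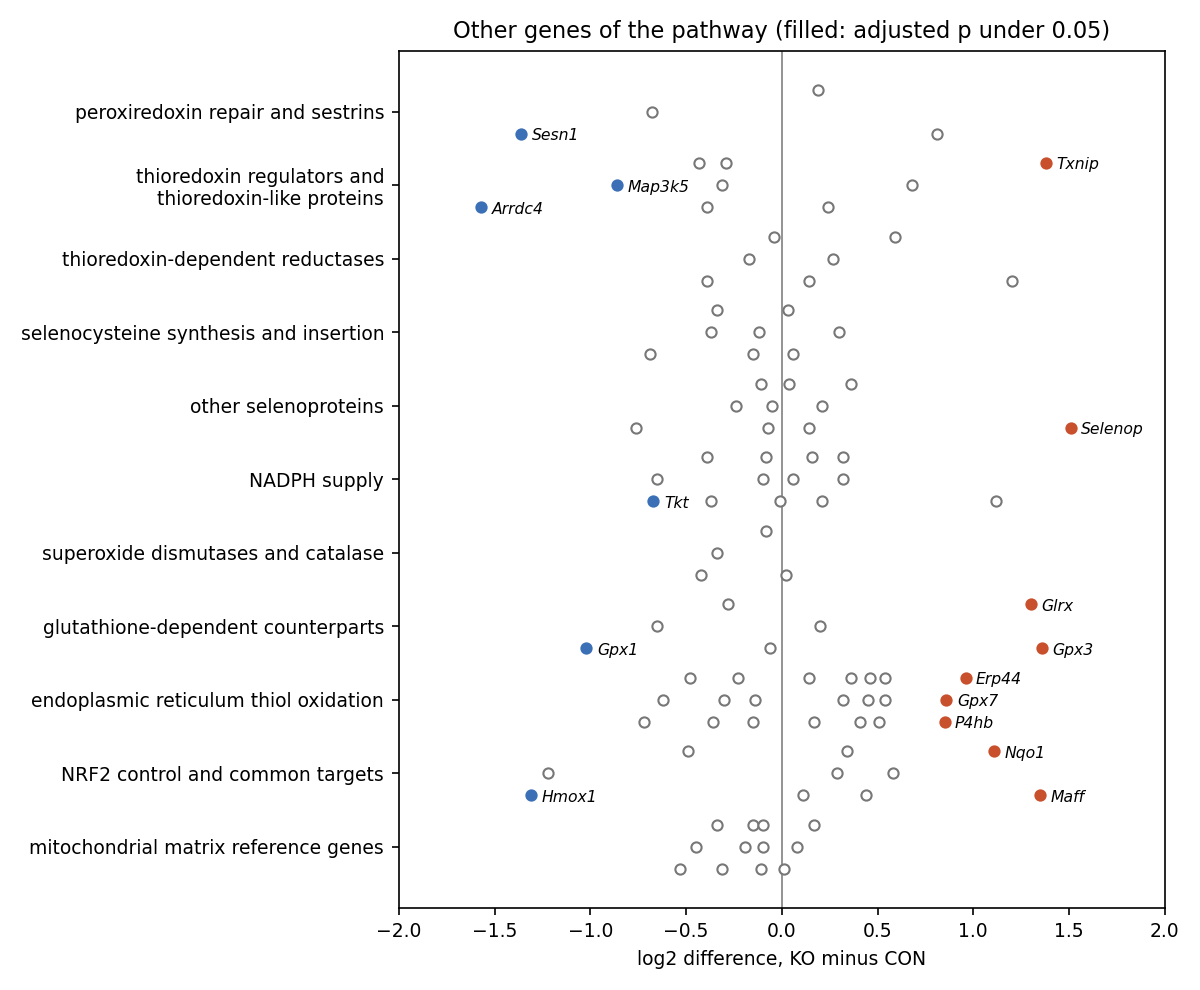
Log2 difference KO minus CON for each tested gene of the 11 lists beyond the 10 members; filled points (red higher, blue lower) have an adjusted p under 0.05 and carry their symbol. Filled points lie on both sides of 0 for thioredoxin regulators, glutathione-dependent counterparts and NRF2 control, and only on the higher side for endoplasmic reticulum thiol oxidation.

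Promoter windows of RefSeq (build GRCm38.p6) were at hand for 9 of the 10 members (all but Prdx6), in 11 windows, and the 250 bases before each start were searched on both strands. The letters TGACNNNGC, the core of the antioxidant response element, occurred in the window of Prdx1 and in 1 of the 3 windows of Txnrd1, against 10.2% of all 32851 windows. TGAGTCA, the AP-1 letters, occurred in Prdx1 at 2 places, 1 of which overlaps the TGACNNNGC match, against 4.46% of all windows. Among the other genes searched, Srxn1 held TGAGTCA at 2 places, Arrdc4 held TGACNNNGC 28 to 20 bases before its start, and Txnip held neither. The stretches before the first annotated exon of these 2 genes are shown because they are the peroxiredoxin and the repair enzyme whose windows hold such matches, which the capitals mark. The Prdx1 stretch is chr4:116685349-116685543 on the plus strand and the Srxn1 stretch chr2:152105274-152105515 on the plus strand.
Prdx1: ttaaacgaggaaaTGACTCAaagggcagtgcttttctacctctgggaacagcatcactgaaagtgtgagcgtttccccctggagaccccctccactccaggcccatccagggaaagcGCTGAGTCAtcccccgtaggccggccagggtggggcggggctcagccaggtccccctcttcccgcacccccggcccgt
Srxn1: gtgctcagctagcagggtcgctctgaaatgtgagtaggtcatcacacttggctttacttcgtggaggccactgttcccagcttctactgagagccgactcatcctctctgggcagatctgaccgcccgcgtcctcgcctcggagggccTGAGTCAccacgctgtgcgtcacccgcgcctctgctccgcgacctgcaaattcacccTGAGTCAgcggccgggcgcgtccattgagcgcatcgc
The E-box letters CACGTG occurred in the windows of Prdx4 and Arrdc4, against 6.02% of windows. In the window of Txnip, a pair of E-box-like repeats (CACGNG, then 5 bases of any kind, then CACGNG) occurred once as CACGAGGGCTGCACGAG, 85 to 69 bases before the start, against 15 of all windows (0.0457%), a pattern searched after that window had been read. These matches describe letters only, and only the forms given were searched. In Srxn1, the TGAGTCA match nearer the start is followed by GC, which differs from TGACNNNGC by a G in place of the C. Prdx1, with both kinds of match, had a log2 difference of -0.11, and Srxn1 one of 0.81, neither past the threshold.

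The 3 tested genes whose deposited values correlated most with Prdx6 over the 6 libraries, of 11346 candidates, were Samd9l (Pearson r = 0.9991), Slf1 (0.9985) and Ldhb (0.9980), a description over 6 points that include the group difference. Mean normalised reads in CON and KO were 27.7 ± 40.1 and 339.7 ± 84.3 for Samd9l, 109 ± 42.2 and 253 ± 21.6 for Slf1, and 861 ± 331 and 2168 ± 244 for Ldhb.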

How the data were processed

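RNA sequencing of P1 lens was compared between 3 Gclc KO and 3 Gclc CON libraries. Per the submitters' processing notes, Trimmomatic, HISAT2 2.1.0 with mm9, featureCounts 1.6.4 and DESeq2 (given as 2.11.0.6) were used. The authors deposited log2 values after the variance-stabilising transformation of DESeq2, the lowest being 6.504. Inverting the transformation gave whole reads for 100.0% of values (within 0.1), and these were divided by size factors that equalled the median of ratios. Reads carry no molecular identifiers. Even counts made up 51.47% to 55.06% of counts from 1 to 100, so both mates of some pairs may have been counted and a printed read number may exceed the number of fragments. Of 27179 identifiers, 25275 matched a GRCm38 symbol, and 7954 had no reads.

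Genes with a mean at least 1 log2 unit above the lowest value (11468) were tested on the deposited values in R 4.3.3, using lmFit and eBayes (with trend) of limma 3.58.1, with Benjamini-Hochberg adjustment over all of them. The fit was also run on simulated counts without a shift in crystallin share, which cannot bear on the choice of scale. The members and lists were chosen with earlier results of these data known. Named genes are the members, Gclc, and up to 4 called genes per list and direction (all where 5 or fewer were called). The 3 genes most correlated with the member of smallest p are named too, and Srxn1 and Arrdc3 were added. Alternatives changed the filter, scaling (voom on recovered reads among them), a pseudocount of 1 normalised read, variance model, weights, a replicate block and each library in turn. Another added a covariate for the library name style, in which KO 2 and KO 3 differ. As that style occurs in KO only, the KO difference of this fit compares KO 1 alone with CON. It cannot separate name style from genotype, and only its effect sizes are read below. The other lane suffix of CON 2 was given no covariate. Non-overlap on RPM and the paired E-box pattern were added after the data were seen. The marker list of neural retina and ciliary margin is not reported here.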

Additional observations from a re-analysis of the deposited data

How the results depend on the processing

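Members called higher (1 on the deposited values) became 0 with equal library medians, without an eBayes trend and with the replicate block, and 9 with library totals. Leaving out 1 library gave 0 to 1. Prdx6 kept a positive difference in all alternatives (0.68 to 1.65), with adjusted p = 0.0836 (limma) for equal medians, 0.055 without a trend and 0.0988 with the block. With the covariate for library name style, where KO 1 alone stands against CON, its difference was 0.90. Apart from that fit, of which only effect sizes are read, no member was called lower in any alternative. Replicate numbers did not pair the libraries (correlation of deviations -0.364, -0.128 and -0.140 for numbers 1 to 3), so the block has no basis in the labels.

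Directions that turned were as follows. Prdx1 was at 0.73 with library totals, 0.10 with totals without crystallins, 0.07 with the covariate and from -0.28 to 0.02 (without CON 3) without 1 library. Prdx2 was at 0.69 and 0.06 on those 2 totals. Prdx5 and Txn1 were each at 0.69 and 0.06, and at 0.05 and 0.16 with the covariate; Txn1 ran from -0.41 to 0.01 (without CON 2) without 1 library. Prdx3 was at -0.11 with equal medians and -0.04 with library weights, and from -0.13 to 0.21 without 1 library. Prdx4 was at 0.01 with voom on size factors, 0.83 and 0.22 on the totals, 0.27 with the covariate, and from -0.21 to 0.12 without 1 library. Txn2 was at 0.46 with library totals, Txnrd2 at -0.05 with the covariate and Tkt at 0.13 with library totals. The ratio of Prdx1 to Prdx2 ran from -0.02 (without CON 2) to 0.11 without 1 library, and that of Txnrd1 to Txnrd2 from -0.40 (without KO 1), with -0.31 without CON 2, to 0.48. The values with the covariate are those of KO 1 alone against CON. Except where a total or centring shifts all genes, the cause was not tested.

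Genes higher (793, 6.91% of those tested) numbered 340 with a filter of 3 units, which tests fewer genes, 421 (3.67%) with voom on size factors, 3314 (28.9%) with library totals, 1219 (10.6%) with library weights, 204 (1.78%) with the covariate, and 3.11% (without KO 2) to 9.46% (without CON 1) without 1 library. Genes lower (504, 4.39%) numbered 360 (1.87%) without a filter, 462 (9.22%) with a filter of 3 units, 85 (0.741%) with library totals, 292 (2.55%) without crystallins, 933 (8.14%) with weights, 309 (2.69%) with the block, 39 (0.34%) with the covariate, and 1.53% (without KO 2) to 7.48% (without CON 1) without 1 library. The share of calls that were higher was 61.1%, and 71.3% without a filter and 42.4% with the filter of 3 units. It was 47.3% with equal medians, 47.1% with voom on size factors and 97.5% with library totals. Pathway genes beyond the members called higher (9) numbered 41 with library totals, and 3 (without KO 2) to 9 without 1 library. Those called lower (6) numbered 3 with no filter, with totals without crystallins, with the pseudocount and with the block. They numbered 0 with library totals, 10 with weights, and 1 (without KO 2) to 10 (without CON 1) without 1 library. CON 2, the library of another lane suffix, limits the least-read member, Txnrd1, with 100 reads.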
